A study of Caenorhabditis elegans with 18 samples.

Results

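The question was whether loss of the F-box gene *fbxl-5* has the same effect on the adult transcriptome when *rict-1* is already impaired. The data are the 12 of 18 mRNA-Seq libraries of the series that form a 4-genotype square, with 3 libraries for each genotype: wild-type N2 animals, the *fbxl-5(rhd43)* mutant, the *rict-1(mg360)* mutant and a strain with both mutations, *rict-1(mg360); fbxl-5(rhd43)*, called the double mutant here. The *rhd43* allele is a nonsense mutation and *mg360* is a missense mutation that may leave some RICT-1 function, and each genotype is represented by a single strain. All animals were whole day 1 adult hermaphrodites, synchronised as L1 larvae and grown for about 72 hours at 20 °C on *E. coli* OP50 at 5000 animals per plate, so each library pools every tissue of a plate of worms. The other 6 libraries of the series, *lin-29(n333)* with and without *fbxl-5(rhd43)*, entered the fit only to help estimate the spread between replicates and are otherwise given only for comparison. Of the 24998 genes in the table, the 13472 (53.9%) with a mean of at least 10 normalised counts over the 18 libraries were tested.

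RICT-1 is the worm Rictor protein, the subunit that defines mTOR complex 2 (mTORC2), a kinase complex that acts in the intestine to control fat storage, growth and yolk production, in part through the kinase SGK-1. FBXL-5 is an F-box protein with leucine-rich repeats. F-box proteins are the substrate-binding subunits of SCF (Skp1, cullin, F-box) ubiquitin ligases. The vitellogenins encoded by the *vit* genes are lipoproteins made in the adult intestine and taken up by oocytes, and they are a common readout of both pathways.

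For each gene, the effect of *fbxl-5* loss was measured in each background, as the log2 difference of the *fbxl-5* mutant from wild-type and as the log2 difference of the double mutant from the *rict-1* mutant. These differences share no library. The interaction is the second minus the first on the log2(normalised count + 1) scale, so a positive value means that *fbxl-5* loss lowered a gene less, or raised it more, when *rict-1* was mutant. Values after ± are standard errors from the limma fit, and genes were called at a false discovery rate of 1% over all genes tested (adjusted p).

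The libraries held between 19100249 and 29733059 reads assigned to genes. The median within-genotype SD of a gene was 0.15 (log2) in wild-type, 0.11 in *fbxl-5*, 0.19 in *rict-1* and 0.14 in the double mutant. It was largest in the 2 *lin-29* genotypes, at 0.22 in *lin-29(n333)* and 0.25 with *fbxl-5(rhd43)* added, and these libraries enter every standard error given here. Ribosomal RNA took between 0.255% and 30% of the reads on genes, the highest share being that of *fbxl-5* replicate 3. Because both alleles are point mutations, transcript levels cannot check the labels. The *fbxl-5* transcript stood at 86.5, 110.1 and 88.1 in wild-type, 139, 138 and 141 in *fbxl-5*, 178, 193 and 173 in *rict-1* and 214, 208 and 226 in the double mutant, with an interaction of -0.30 ± 0.36 (adjusted p = 0.732). It did not pass the test in the *fbxl-5* mutant against wild-type (0.56, adjusted p = 0.194) and it rose in the double mutant against wild-type (1.19, adjusted p = 0.00337). The *rict-1* transcript ranged from 2120 to 3249 normalised counts over the 12 libraries, with an interaction of 0.35 ± 0.17 (adjusted p = 0.293).

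The effect of *fbxl-5* loss differed between the backgrounds for 115 genes, 0.854% of those tested. The interaction was positive for 85 (0.631%) and negative for 30 (0.223%). In the wild-type background, *fbxl-5* loss changed 345 genes (2.56%), of which 79 rose (0.586%) and 266 fell (1.97%). In the *rict-1* background it changed 187 genes (1.39%), of which 44 rose (0.327%) and 143 fell (1.06%). These counts depended on the fit. With the 12 libraries fitted alone they were 819 interactions, 1374 genes for *fbxl-5* loss in wild-type and 688 for its loss in *rict-1*, and with DESeq2 on the reads 458, 840 and 482. Without 1 library at a time, the number of called interactions ranged from 55 (without *rict-1* replicate 3) to 89 (without *rict-1* replicate 2), that of genes changed in wild-type from 124 (without wild-type replicate 3) to 323 (without *rict-1* replicate 2), and that in *rict-1* from 87 (without double mutant replicate 2) to 179 (without wild-type replicate 1). At an unadjusted p under 0.05 the interaction passed for 2347 genes.

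Genes with an effect of *fbxl-5* in either background, or with a called interaction, numbered 508 and were sorted by the 2 effects. The effect was reversed, with opposite signs that each had an unadjusted p under 0.05, for 64 genes. Called interactions that were not reversed were sorted by the absolute size of the 2 effects. The effect was buffered, smaller in *rict-1* than in wild-type, for 33 and enlarged, larger in *rict-1*, for 18. Signs were not used here, so the 2 effects of a buffered or enlarged gene can differ in sign. It was additive for 110, meaning that the interaction was not called and that its 95% interval lay inside a 2-fold change either way (-1 to 1 on the log2 scale). The remaining 283 were undecided, since the interval was too wide to place them. A missed threshold therefore does not make a gene additive here.

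The 266 genes that fell with *fbxl-5* loss in wild-type had a median difference of -1.48 in the wild-type background, which is the value that selected them, and of -0.03 in the *rict-1* background, where 22 fell (against the 1.06% of all genes that fell there), 4 rose and the rest did not pass the test. The interaction was called for 70 of these 266, against 0.854% of all genes. The 79 genes that rose in wild-type had medians of 0.86 and 0.05, and in the *rict-1* background 2 of them rose and 2 fell. The interaction was called for 11 of the 79. It subtracts the same difference from wild-type that selected these 266 and 79 genes. The choice itself therefore favours a positive interaction in the 266 and a negative one in the 79. Selected the other way, the 143 genes that fell in the *rict-1* background had a median of -1.16 there and of -0.31 in wild-type. Of these 143, 118 rose in *rict-1* against wild-type, against 10.7% of all genes, but both comparisons use the same *rict-1* libraries and the choice of genes favours high values in them. The 44 that rose in the *rict-1* background had medians of 1.46 and 0.12. The plot of both effects shows these sets off the diagonal, where equal effects would lie.

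**Figure D1:**
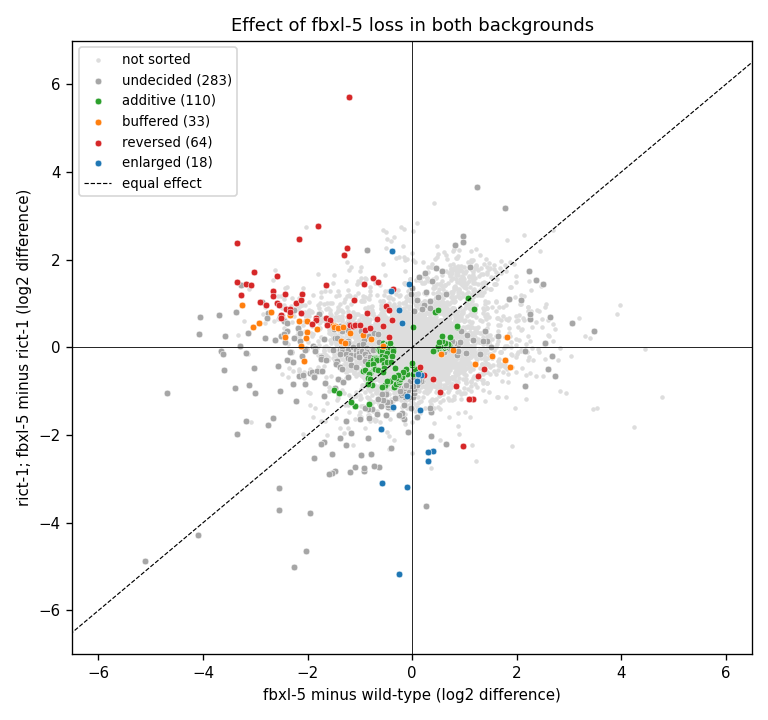
Effect of *fbxl-5* loss in the 2 backgrounds. Each point is 1 of the 13472 genes tested. The x axis gives the log2 difference of *fbxl-5* from wild-type, and the y axis that of the double mutant from *rict-1*. Colours mark the 508 sorted genes (64 reversed, 33 buffered, 18 enlarged, 110 additive and 283 undecided), and the palest points were not sorted. Additive genes lie near the line of equal effects.

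The genes with a positive interaction were, in the main, low in both single mutants and less low in the double mutant. Of the 85, 83 were below wild-type in both single mutants by their mean log2 values, and 54 passed the test for a fall in both. Their median log2 difference from wild-type was -1.80 in *fbxl-5* and -1.53 in *rict-1*. The sum of the 2 single-mutant differences, which is the additive value on the log2 scale, had a median of -3.30, and the median measured in the double mutant was -0.79. In 66 of the 85 the double mutant lay between wild-type and both single mutants, in 12 it was the highest of the 4 genotypes, and 56 did not pass the test against wild-type in the double mutant. In that comparison 24 of the 85 fell and 5 rose, while over all genes 1471 (10.9%) passed, 480 falls (3.56%) and 991 rises (7.36%). These patterns follow in part from choosing the genes on the interaction, and the 3 differences from wild-type share the wild-type libraries.

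Single libraries showed the same order. Relative to each gene's mean over the 12 libraries, the median of the 85 genes was 0.82, 0.99 and 1.09 (log2) in the wild-type libraries, -0.86, -0.80 and -0.58 in *fbxl-5*, -0.59, -0.32 and -0.51 in *rict-1* and 0.13, 0.12 and 0.49 in the double mutant. No double mutant library reached the wild-type ones, and none fell among the single mutants. The 30 genes with a negative interaction had medians of -0.84, -0.64 and -0.71 in wild-type, -0.19, -0.36 and -0.25 in *fbxl-5*, 0.96, 0.91 and 0.96 in *rict-1* and -0.04, -0.13 and 0.14 in the double mutant. They were highest in *rict-1*, and the double mutant stood between *rict-1* and *fbxl-5*.

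**Figure D2:**
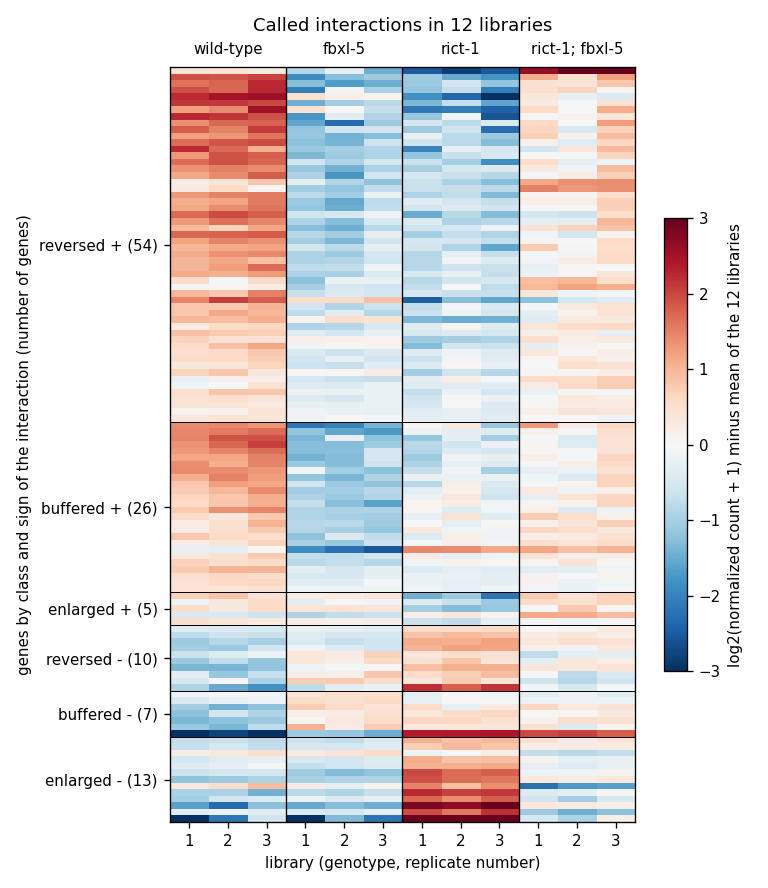
The 115 genes with a called interaction in the 12 libraries. Rows are genes, columns are libraries grouped by genotype, and colour gives the log2 value minus the gene's mean over the 12 libraries; the 85 genes with a positive interaction were mostly low in both single mutants, and the 30 with a negative one mostly high in *rict-1*.

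The most positive interaction was that of *B0024.4*, a protein-coding gene on chromosome V (10297399 to 10298985, WBcel235). Its normalised counts were 63.2, 65.6 and 59.1 in wild-type, 26.5, 41.4 and 17.1 in *fbxl-5*, 7.87, 6.23 and 7.75 in *rict-1* and 306, 596 and 435 in the double mutant. Among the 12 libraries, all 3 double mutant libraries were above all others, and the *rict-1* libraries were the lowest. The double mutant mean of 446 was not particular to it in the series, with 449 in *lin-29(n333)* and 378 with *fbxl-5(rhd43)* added. Loss of *fbxl-5* raised the gene by 5.71 (log2) in the *rict-1* background (adjusted p = 3.1e-06), against -1.20 in wild-type (adjusted p = 0.123), an interaction of 6.91 ± 0.65 (adjusted p = 5.6e-05). The double mutant was also above wild-type, by 2.76 (adjusted p = 0.000603).

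The other leading reversed genes were below wild-type in both single mutants. *R11D1.3* stood at 133, 145 and 206 in wild-type, 16.9, 12.5 and 14.9 in *fbxl-5*, 19.2, 28.8 and 18.1 in *rict-1* and 58.6, 55.7 and 75.1 in the double mutant. Neither single mutant overlapped the double mutant, which in turn lay below wild-type. The gene fell with *fbxl-5* loss in wild-type by 3.35 (log2, adjusted p = 5.7e-05) and was 1.49 higher with it in *rict-1* (adjusted p = 0.0240), an interaction of 4.85 ± 0.50 (adjusted p = 5.6e-05). *srlf-30* had 248, 293 and 312 in wild-type, 72.3, 58.8 and 56.0 in *fbxl-5*, 14, 9.34 and 3.44 in *rict-1* and 65.2, 43.6 and 38.8 in the double mutant. It was lowest in *rict-1*, and the double mutant overlapped *fbxl-5*. Its effect of *fbxl-5* loss went from -2.17 in wild-type to 2.47 in *rict-1*, an interaction of 4.64 ± 0.61 (adjusted p = 0.000535).

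Genes for lipid handling and small-molecule conjugation were among these. *ugt-8*, one of the UDP-glucuronosyltransferase genes, whose products attach sugars to small lipophilic molecules, had 86.5, 110.1 and 114 in wild-type, 10.4, 5.78 and 14.9 in *fbxl-5*, 22.7, 18.7 and 24.1 in *rict-1* and 50.4, 32.3 and 80.2 in the double mutant and an interaction of 4.46 ± 0.47 (adjusted p = 6.6e-05). *lips-15*, a lipase family gene, had 588, 631 and 769 in wild-type, 113, 93.5 and 103 in *fbxl-5*, 215, 146 and 118 in *rict-1* and 414, 277 and 481 in the double mutant and an interaction of 3.96 ± 0.54 (adjusted p = 0.00107). *far-8*, of the fatty acid and retinol binding protein family, had 1188, 1366 and 1436 in wild-type, 157, 142 and 242 in *fbxl-5*, 247, 213 and 152 in *rict-1* and 410.4, 290.4 and 569.8 in the double mutant and an interaction of 3.94 ± 0.64 (adjusted p = 0.00408). In all 3 genes the wild-type libraries were the highest, and the double mutant libraries were above every single mutant library. The calls of *ugt-8* and *lips-15* held in each of the 12 fits that lacked 1 library, as did those of *B0024.4*, *R11D1.3* and *srlf-30*, whereas that of *far-8* held in 4 of 12 (highest adjusted p = 0.0150, without *rict-1* replicate 3).

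*fat-7*, a stearoyl-CoA desaturase gene that makes oleic acid from stearic acid in the intestine, was also reversed. It had 2188, 3345 and 2768 in wild-type, 1153, 1169.6 and 1461 in *fbxl-5*, 144, 325 and 266 in *rict-1* and 337, 552 and 638 in the double mutant. The genotypes did not overlap, in the order wild-type, *fbxl-5*, double mutant and *rict-1*. It was -1.12 with *fbxl-5* loss in wild-type (adjusted p = 0.0168) and 1.08 in *rict-1* (adjusted p = 0.0316), an interaction of 2.20 ± 0.37 (adjusted p = 0.00432), while *rict-1* loss alone lowered it by 3.55 (adjusted p = 1.6e-07). Its call held in 5 of the 12 fits that lacked 1 library (highest adjusted p = 0.0155, without double mutant replicate 2) and was lost when the fit used the 12 libraries alone (adjusted p = 0.0112). It was the 1 called gene of the 14 tested desaturase and elongase (*fat* and *elo*) genes, against the 0.854% of all genes. *lbp-7*, a fatty acid binding protein gene and 1 of 9 tested *lbp* genes, had 219.9, 242 and 329.8 in wild-type, 185, 180.2 and 209 in *fbxl-5*, 186, 191 and 191 in *rict-1* and 278, 363 and 403 in the double mutant, with an interaction of 1.3 ± 0.22 (adjusted p = 0.00431). Here 2 of the 3 double mutant libraries were above every wild-type library. Its call held in 3 of 12 such fits (highest adjusted p = 0.0165, without double mutant replicate 3).

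Other genes in which the double mutant was the highest genotype included the tetraspanin genes *tsp-1* and *tsp-2*, which encode membrane proteins with several membrane-spanning segments and lie 66 bases apart on chromosome III. They were chosen for description after their values were seen. *tsp-1* had 49.1, 62.1 and 42.7 in wild-type, 19.3, 17.3 and 24 in *fbxl-5*, 25.4, 24.9 and 23.3 in *rict-1* and 119, 102 and 107 in the double mutant, with an interaction of 3.41 ± 0.29 (adjusted p = 2.4e-05). *tsp-2* had 49.1, 56.2 and 77.2 in wild-type, 35.3, 23.1 and 18.3 in *fbxl-5*, 27.1, 21.8 and 17.2 in *rict-1* and 96.6, 114 and 115 in the double mutant, with an interaction of 3.51 ± 0.38 (adjusted p = 7.2e-05). In both genes the single mutants were below wild-type in every library and the double mutant above it in every library. Both calls held in all 12 fits lacking 1 library.

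**Figure D3:**
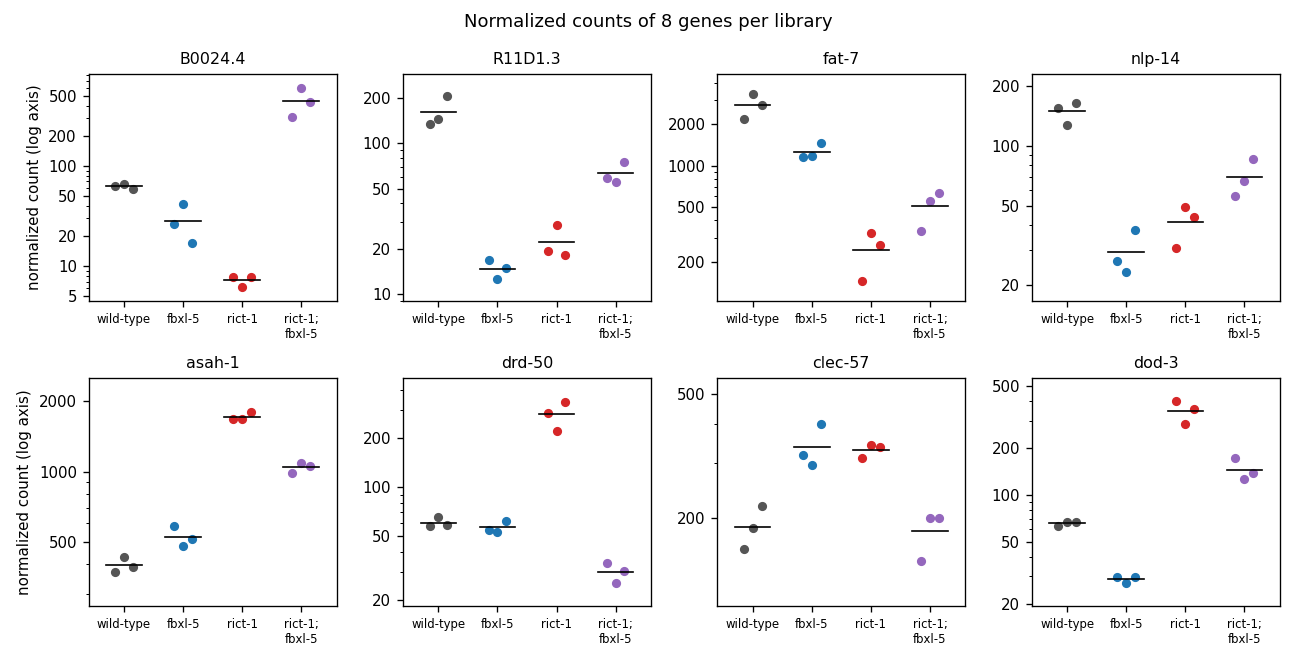
Normalised counts (log axis) of 8 genes in the 12 libraries. Points are libraries and lines are means for wild-type, *fbxl-5*, *rict-1* and the double mutant; *B0024.4*, *R11D1.3*, *fat-7* and *nlp-14* had positive interactions, *asah-1*, *drd-50* and *clec-57* negative ones, and *dod-3* was additive.

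The 26 buffered genes with a positive interaction had a median effect of *fbxl-5* loss of -2.02 in wild-type and of 0.45 in *rict-1*. *ugt-25* had 192, 208 and 225 in wild-type, 30.5, 23.1 and 20.6 in *fbxl-5*, 62.1, 58.4 and 53.4 in *rict-1* and 78.4, 67.8 and 99.6 in the double mutant. It fell with *fbxl-5* loss in wild-type by 3.04 (adjusted p = 7.2e-05) and was 0.48 in *rict-1* (adjusted p = 0.719), an interaction of 3.52 ± 0.46 (adjusted p = 0.000509). This gene overlaps *mlst-8* on the other strand, and *mlst-8* encodes a shared mTOR complex subunit. *ugt-41* had 175, 233 and 197 in wild-type, 36.1, 30.8 and 43.4 in *fbxl-5*, 71.7, 71.6 and 71.5 in *rict-1* and 75.1, 61.3 and 130.0 in the double mutant, with differences of -2.43 and 0.23 and an interaction of 2.66 ± 0.32 (adjusted p = 0.000208). Together with *ugt-8* these were the 3 called genes of 54 tested *ugt* genes, against 0.854% of all genes. All 3 were positive, whereas the median interaction of the 54 was -0.23, beside 0.01 for all genes tested. The *ugt-25* and *ugt-41* calls held in all 12 fits lacking 1 library.

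The other buffered genes that led by size have no described function in the files. *T19H12.3* had an interaction of 3.50 ± 0.58, *Y69A2AR.22* of 3.21 ± 0.60 and *T11B7.5* of 3.08 ± 0.51. All 3 were highest in wild-type. *T11B7.5* overlaps *alp-1* and *Y69A2AR.22* overlaps *Y69A2AR.16*, each on the other strand. The *T19H12.3* call held in 5 of 12 fits lacking 1 library and that of *T11B7.5* in 8, each with its highest adjusted p (0.0130) without *fbxl-5* replicate 1. The *Y69A2AR.22* call (adjusted p = 0.00788) was lost when the *rict-1* and double mutant libraries were paired by replicate number (adjusted p = 0.0155) and in 11 of the 12 fits lacking 1 library (up to 0.0294, without *fbxl-5* replicate 1). The libraries were made without strand information, so reads of overlapping genes on opposite strands cannot be told apart.

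Neuropeptide genes gave several of the positive calls, a group singled out after the values were seen. Neuropeptides are short signalling peptides cut from precursors and released from dense-core vesicles, and the worm has FMRFamide-like (*flp*), neuropeptide-like (*nlp*) and insulin-like (*ins*) families. Of the 139 genes of these families in the table, 100 were tested and 7 had a called interaction, all positive, against 0.631% of all genes. The median interaction of the 100 was 0.95, beside 0.01 over all genes, with medians of -0.72 for *fbxl-5* loss in wild-type, 0.26 for *fbxl-5* loss in *rict-1* and -0.30 for *rict-1* loss. In 79 of the 100 the interaction was positive, compared with 51.4% of all genes, and 62 were below wild-type in both single mutants, compared with 34.6%. The summed level of the 100 genes was 12004 to 14808 normalised counts in wild-type, 9582 to 10682 in *fbxl-5*, 13773 to 16913 in *rict-1* and 13097 to 14399 in the double mutant, so that by the sum only *fbxl-5* stood apart from wild-type.

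*nlp-14* had 156, 126 and 164 in wild-type, 26.5, 23.1 and 37.7 in *fbxl-5*, 30.6, 49.0 and 43.9 in *rict-1* and 56.2, 66.2 and 86.1 in the double mutant. Among the 12 libraries, its wild-type libraries were above all others and its double mutant libraries above both single mutants, with an interaction of 3.08 ± 0.51 (adjusted p = 0.00331). *flp-14* had 213, 227 and 293 in wild-type, 45.0, 33.7 and 58.3 in *fbxl-5*, 78.7, 67.7 and 61.1 in *rict-1* and 114, 111 and 163 in the double mutant, the same order, and an interaction of 3.29 ± 0.51 (adjusted p = 0.00220). *nlp-51* had 87.7, 83.2 and 93.6 in wild-type, 46.6, 63.6 and 59.4 in *fbxl-5*, 16.6, 14.8 and 15.5 in *rict-1* and 33.9, 53.2 and 52.3 in the double mutant. It was lowest in *rict-1*, where *fbxl-5* loss raised it by 1.49 (adjusted p = 0.000570), with an interaction of 2.13 ± 0.30 (adjusted p = 0.000938). *ins-22*, an insulin-like peptide gene with few counts, had 11.7, 12.9 and 14.5 in wild-type, 5.62, 8.67 and 8.0 in *fbxl-5*, 7.0, 12.5 and 6.89 in *rict-1* and 25.6, 29.8 and 27.0 in the double mutant. The double mutant was the highest genotype, and *fbxl-5* loss raised the gene by 1.59 in *rict-1* (adjusted p = 0.00418), an interaction of 2.34 ± 0.41 (adjusted p = 0.00462).

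The other 3 called members were *flp-12*, *flp-4* and *nlp-6*, with interactions of 1.92 ± 0.37, 1.85 ± 0.33 and 1.80 ± 0.32. *flp-12* and *nlp-6* were highest in the double mutant. Their calls (adjusted p = 0.00936 and 0.00565) were lost when *rict-1* and the double mutant were paired by replicate number (adjusted p = 0.0150 and 0.0115). Of the 7 calls, those of *flp-14* and *nlp-51* held in all 12 fits lacking 1 library. *nlp-14* kept its call in 7 of them (highest adjusted p = 0.0125, without double mutant replicate 3), *ins-22* and *nlp-6* in 3 (0.0185 without *rict-1* replicate 3, and 0.0222 without *fbxl-5* replicate 2), *flp-4* in 2 (0.0205, without double mutant replicate 3) and *flp-12* in 0 (0.0338, without *fbxl-5* replicate 1).

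Genes whose products process neuropeptide precursors gave 2 further positive calls. *sbt-1* encodes the worm relative of the chaperone of proprotein convertase, and *pgal-1* an enzyme of peptide amidation. *sbt-1* had 519, 531 and 659.6 in wild-type, 268, 257 and 326 in *fbxl-5*, 311, 429 and 348 in *rict-1* and 420.3, 579 and 563 in the double mutant, with the single mutants below wild-type in every library and an interaction of 1.52 ± 0.26 (adjusted p = 0.00431). *pgal-1* had an interaction of 2.19 ± 0.39 (adjusted p = 0.00565). These were the 2 called genes of 11 (all genes, 0.854%) in a list also assembled after the values were seen, whose median interaction was 1.04. *egl-21* (carboxypeptidase), *egl-3* (proprotein convertase) and *ida-1* (a dense-core vesicle protein) had adjusted p-values of 0.012, 0.017 and 0.018 and did not pass. *sbt-1* overlaps *grl-14* and *pgal-1* overlaps *F21F3.6*, each on the other strand. The *sbt-1* call held in 4 of 12 fits lacking 1 library (highest adjusted p = 0.0163, without double mutant replicate 3) and the *pgal-1* call in 2 (0.0214, without *fbxl-5* replicate 2).

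Markers of other tissues moved beside these genes, and in bulk RNA fewer cells of a type and less RNA per cell cannot be told apart. The summed level of 5 neuron markers (*rab-3*, *snb-1*, *unc-104*, *ric-4* and *sng-1*) overlapped between genotypes, at 3025 to 3284 normalised counts in wild-type, 2989 to 3264 in *fbxl-5*, 2978 to 3272 in *rict-1* and 3165 to 3235 in the double mutant. Gene by gene, 4 of these 5 had an interaction above 0, with a median of 0.62 beside 0.01 over all genes tested and 0 calls by limma. This is in the same direction as the neuropeptide genes, and its part in those results was not tested. The 4 pharynx markers (*myo-1*, *myo-2*, *tnc-2* and *ceh-22*) summed to 1821 to 2568 in wild-type, 469 to 819 in *fbxl-5*, 270 to 510 in *rict-1* and 443 to 916 in the double mutant, and their median interaction was 2.09. Of the 4, 3 had an interaction above 0 and 1 below it (-0.85), and none was called. Among the 12 libraries the sum was highest in wild-type, and in the double mutant it overlapped both single mutants.

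Further pharyngeal lists were looked at after this was seen. The 6 pharyngeal muscle genes summed to 2848 to 3762 in wild-type, 997 to 1298 in *fbxl-5*, 701 to 1075 in *rict-1* and 1003 to 1692 in the double mutant, with a median interaction of 1.98 and 0 calls by limma. For the closest of them, *myo-5*, the adjusted p was 0.018. The 8 *phat* genes of the pharyngeal gland summed to 1317 to 1697, 251 to 358, 221 to 322 and 335 to 619 in the same order of genotypes. 1 of them, *phat-8*, was called, with 317, 369 and 333.4 in wild-type, 65.9, 51.1 and 69.7 in *fbxl-5*, 62.1, 48.2 and 26.7 in *rict-1* and 144, 80.7 and 90.3 in the double mutant and an interaction of 3.66 ± 0.69 (adjusted p = 0.00905), and the call was lost with the *rict-1* pairing (adjusted p = 0.0109) and in each fit lacking 1 library (up to 0.0305, without *rict-1* replicate 3). All 6 pharyngeal muscle genes had an interaction above 0 (1.08 to 2.80). This list is not separate from the 4 pharynx markers, since both have the same highest value (2.80). It leaves out the pharynx marker at -0.85, so its signs are not further evidence. Of the 8 *phat* genes, 6 had an interaction above 0 and 2 below it (lowest -1.92), and 5 were below wild-type in both single mutants. The sums of both lists move in the same direction as the 85 positive genes, and their part in those results was not tested.

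**Figure D4:**
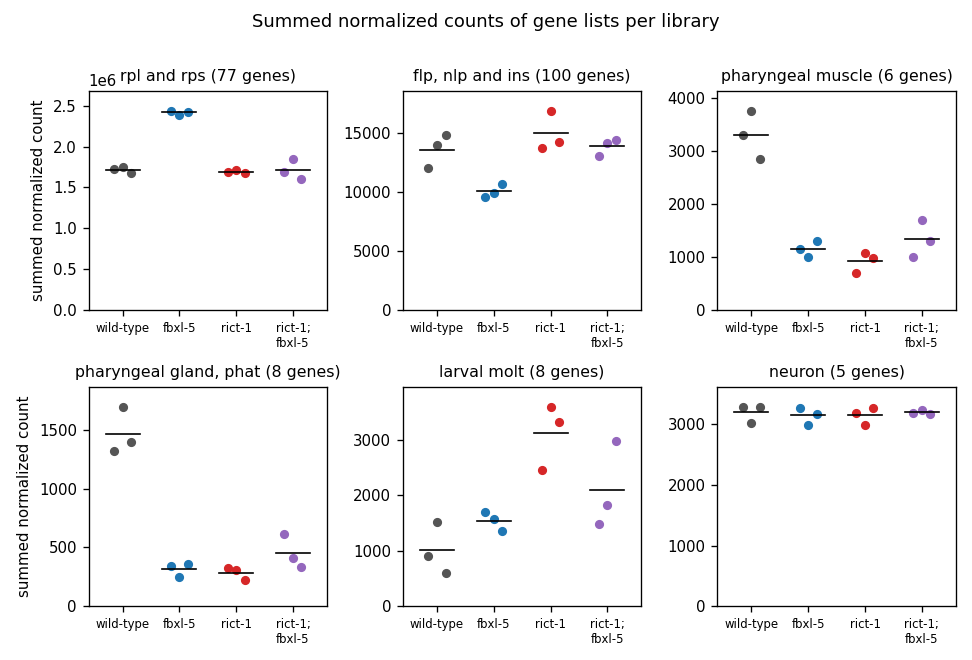
Summed normalised counts of 6 gene lists in the 12 libraries (linear axes from 0). Points are libraries and lines are means of wild-type, *fbxl-5*, *rict-1* and the double mutant; the sums of the 5 neuron markers overlapped between genotypes (their median interaction was 0.62), the pharyngeal lists were highest in wild-type, and the 77 ribosomal protein genes were highest in *fbxl-5*.

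The 30 genes with a negative interaction were mostly raised by *rict-1* loss. Of these, 25 rose in *rict-1* against wild-type and 22 were above wild-type in both single mutants by their means. The median difference from wild-type was 0.40 in *fbxl-5*, 1.56 in *rict-1* and 0.90 in the double mutant, where the 2 single-mutant differences add to a median of 2.53. In 23 of the 30 the *rict-1* mutant was the highest genotype, and in the other 7 it was *fbxl-5*. Background for the *rict-1* comparison is wide: *rict-1* loss changed 2215 genes (16.4%), of which 1436 rose (10.7%) and 779 fell (5.78%).

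The 13 enlarged genes with a negative interaction had a median difference of 2.19 for *rict-1* loss, and medians for *fbxl-5* loss of 0.09 in wild-type and -1.86 in *rict-1*. *drd-50* on chromosome IV (4117732 to 4119179) had 57.3, 65.6 and 58.1 in wild-type, 54.6, 53.0 and 61.7 in *fbxl-5*, 289, 222 and 335 in *rict-1* and 33.9, 25.8 and 30.4 in the double mutant. Wild-type and *fbxl-5* overlapped, *rict-1* was the highest and the double mutant was below all others. The difference was -0.10 in wild-type (adjusted p = 0.821) and -3.18 in *rict-1* (adjusted p = 1.2e-07), an interaction of -3.08 ± 0.29 (adjusted p = 4.0e-05). Its neighbour *mul-1*, 2163 bases away and named after its values were seen, had 9.36, 5.86 and 4.54 in wild-type, 10.4, 14.5 and 16 in *fbxl-5*, 88.3, 66.1 and 85.3 in *rict-1* and 17.3, 12.9 and 17.7 in the double mutant and an interaction of -3.23 ± 0.59 (adjusted p = 0.00619, and 0.0109 with the *rict-1* pairing). By the sorting *mul-1* was reversed, not enlarged. The *drd-50* call held in all 12 fits lacking 1 library and the *mul-1* call in 1 (highest adjusted p = 0.0226, without *rict-1* replicate 3).

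*tbb-6*, a beta-tubulin gene, had 72.5, 98.4 and 109.9 in wild-type, 133, 109.8 and 123 in *fbxl-5*, 485, 387 and 524 in *rict-1* and 96.6, 71.0 and 105 in the double mutant. Of the 4 genotypes it was high in *rict-1* only, and the double mutant stood at -0.04 from wild-type (adjusted p = 0.927). The interaction was -2.75 ± 0.36 (adjusted p = 0.000449). High levels were not particular to *rict-1* in the series, with means of 433 in *lin-29(n333)* and 791 with *fbxl-5(rhd43)* added. *Y51H4A.5* had 8.19, 4.68 and 10.9 in wild-type, 8.84, 10.6 and 9.14 in *fbxl-5*, 198, 177 and 231 in *rict-1* and 33.9, 33.1 and 31.2 in the double mutant, with an interaction of -2.88 ± 0.36 (adjusted p = 0.000347). Its double mutant libraries stayed above wild-type. *Y41C4A.32* had 174, 198 and 273 in wild-type, 165, 117 and 147 in *fbxl-5*, 387, 257 and 370.3 in *rict-1* and 28.9, 42.0 and 44.7 in the double mutant, with an interaction of -2.53 ± 0.40 (adjusted p = 0.00261), and here the double mutant was below wild-type by 2.45 (adjusted p = 1.9e-05). The calls of *tbb-6* and *Y51H4A.5* held in all 12 fits lacking 1 library, and that of *Y41C4A.32* in 10 (highest adjusted p = 0.0107, without *fbxl-5* replicate 1).

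The cadmium-responsive genes *cdr-2* and *cdr-4* lie 6031 bases apart on chromosome V, and the second was named after its values were seen. *cdr-4* had 425, 458 and 445 in wild-type, 316, 267 and 293 in *fbxl-5*, 2622, 2129 and 2289 in *rict-1* and 599, 619.6 and 724 in the double mutant. It rose with *rict-1* loss and fell with *fbxl-5* loss in both backgrounds, by 0.60 in wild-type (adjusted p = 0.00895) and by 1.86 in *rict-1* (adjusted p = 2.8e-07), an interaction of -1.25 ± 0.18 (adjusted p = 0.00107). *cdr-2* had 250.3, 273 and 301 in wild-type, 292, 309 and 309 in *fbxl-5*, 2210.5, 1861 and 1727 in *rict-1* and 725, 682 and 721 in the double mutant, with *fbxl-5* and wild-type close together and an interaction of -1.58 ± 0.29 (adjusted p = 0.00619). Its call was lost with the *rict-1* pairing (adjusted p = 0.0125) and in each fit lacking 1 library (up to 0.0214, without *fbxl-5* replicate 2), while that of *cdr-4* held in all 12.

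*K10D11.2* had the largest negative value of the named genes, with a count of 0 to 10.1 in 9 of the 12 libraries. It had 0, 1.17 and 5.45 in wild-type, 0, 2.89 and 1.14 in *fbxl-5*, 269, 247 and 257 in *rict-1* and 5.78, 4.03 and 10.1 in the double mutant. The *rict-1* libraries stood far above the rest, and the interaction was -4.91 ± 0.92 (adjusted p = 0.00778), a value that depends on the added count of 1. The call was lost with edgeR's quasi-likelihood test on the reads (adjusted p = 0.105), with the *rict-1* pairing (adjusted p = 0.0134) and in 10 of 12 fits lacking 1 library (up to 0.0276, without *fbxl-5* replicate 2).

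The 10 reversed genes with a negative interaction included *asah-1*, which had the smallest error of those named here. This acid ceramidase gene encodes a product that breaks ceramide down to sphingosine and fatty acid. It had 371, 429 and 389 in wild-type, 583, 481 and 517 in *fbxl-5*, 1683, 1673 and 1792 in *rict-1* and 989, 1089.9 and 1059 in the double mutant. No genotype overlapped another. It rose with *fbxl-5* loss in wild-type by 0.41 (adjusted p = 0.00765) and fell with it in *rict-1* by 0.71 (adjusted p = 0.000110), an interaction of -1.12 ± 0.12 (adjusted p = 7.2e-05) that held in all 12 fits lacking 1 library.

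C-type lectin (*clec*) genes, whose products bind sugars and are often induced by microbes, gave 4 calls among 95 tested, all negative, against 0.223% of all genes. *clec-57* had 159, 186 and 219 in wild-type, 319, 296 and 401 in *fbxl-5*, 311, 343 and 339 in *rict-1* and 146, 200.1 and 200.1 in the double mutant. It was raised to a similar level in both single mutants, and the double mutant overlapped wild-type, with an interaction of -1.72 ± 0.24 (adjusted p = 0.000851). *clec-80* had 127, 118 and 173 in wild-type, 238, 198 and 169 in *fbxl-5*, 525, 605 and 592 in *rict-1* and 288, 244 and 322 in the double mutant, an interaction of -1.55 ± 0.26 (adjusted p = 0.00388), and a double mutant between *rict-1* and wild-type. *clec-169*, a buffered gene, had 21.1, 32.8 and 25.4 in wild-type, 109, 105 and 82.3 in *fbxl-5*, 1202, 1226 and 1261 in *rict-1* and 914, 962 and 822 in the double mutant. It rose in both single mutants and more in *rict-1*, and the interaction was -2.33 ± 0.40 (adjusted p = 0.00399).

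The fourth, *clec-186*, was also the gene whose adjusted p lay just inside the threshold. It had 1228, 1374 and 1604 in wild-type, 992, 1064 and 1192 in *fbxl-5*, 3319, 3384 and 3577 in *rict-1* and 1373, 1235 and 1384 in the double mutant, with an interaction of -1.0 ± 0.19 (adjusted p = 0.00950). *C10C5.4*, just outside, had an interaction of 1.29 ± 0.25 (adjusted p = 0.0101). The *clec-57* call held in all 12 fits lacking 1 library, *clec-80* in 4 (highest adjusted p = 0.0150, without double mutant replicate 2), *clec-169* in 2 (0.0149, without double mutant replicate 3) and *clec-186* in 0 (0.0324, without *rict-1* replicate 3). The *clec-186* call was also lost with the *rict-1* pairing (adjusted p = 0.0155) and with edgeR (0.0104). Over all 95 *clec* genes the median interaction was -0.24.

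*klf-3*, a Krüppel-like zinc finger transcription factor gene known in the worm for a part in fat metabolism, was reversed with a negative sign. It had 92.4, 121 and 89.9 in wild-type, 257, 233 and 304 in *fbxl-5*, 275, 359 and 265 in *rict-1* and 164, 255 and 227 in the double mutant. Wild-type was the lowest genotype and the other 3 overlapped in part, with differences of 1.39 in wild-type (adjusted p = 0.00146) and -0.49 in *rict-1* (adjusted p = 0.384) and an interaction of -1.87 ± 0.32 (adjusted p = 0.00421). *Y51H7C.1* had 360.2, 502 and 259.9 in wild-type, 842, 857 and 731 in *fbxl-5*, 646, 869 and 654 in *rict-1* and 334, 282 and 332.6 in the double mutant, with an interaction of -2.34 ± 0.37 (adjusted p = 0.00295). Both single mutants of this gene were above the double mutant and wild-type in every library. *B0252.1* had an interaction of -1.91 ± 0.35 (adjusted p = 0.00605, and 0.0121 with the *rict-1* pairing). Calls held in 4 of 12 fits lacking 1 library for *klf-3* (highest adjusted p = 0.0148, without wild-type replicate 3), in 9 for *Y51H7C.1* (0.0107, without *fbxl-5* replicate 1) and in 0 for *B0252.1* (0.0220, without *rict-1* replicate 3).

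The 7 buffered genes with a negative interaction had median effects of 1.53 in wild-type and -0.19 in *rict-1*. *zip-3*, a bZIP transcription factor gene, had 449, 528 and 542 in wild-type, 885, 837 and 898 in *fbxl-5*, 515, 604 and 581 in *rict-1* and 549, 541 and 544 in the double mutant. It was high in *fbxl-5* alone, by 0.79 (adjusted p = 0.000292), against -0.05 in *rict-1*, an interaction of -0.84 ± 0.15 (adjusted p = 0.00459). *C48B4.10* was also highest in *fbxl-5*, with an interaction of -0.70 ± 0.13. *mec-19* had an interaction of -1.72 ± 0.29, the pseudogene WBGene00003067 of -1.57 ± 0.28 and the short non-coding gene *F20C5.10*, which lies within *elli-1*, of -2.06 ± 0.37. *mec-19* overlaps *dlk-1* and *zip-3* overlaps *sre-44* on the other strand. The *zip-3* call held in 2 of 12 fits lacking 1 library (highest adjusted p = 0.0182, without *rict-1* replicate 3), and those of the other 4 genes in 1 to 4 of 12 (highest adjusted p = 0.0252, for *C48B4.10* without *fbxl-5* replicate 2).

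The 5 enlarged genes with a positive interaction had a median effect of -0.25 in wild-type and 1.29 in *rict-1*. *col-135*, a cuticle collagen gene and the 1 called gene of 114 tested *col* genes (all genes, 0.854%), had 561, 459 and 572 in wild-type, 504, 522 and 494 in *fbxl-5*, 191, 155 and 173 in *rict-1* and 389, 659 and 403 in the double mutant. It fell in *rict-1*, and the double mutant overlapped wild-type. The effect of *fbxl-5* loss was -0.06 in wild-type and 1.44 in *rict-1* (adjusted p = 6.0e-05), an interaction of 1.5 ± 0.23 (adjusted p = 0.00158) that held in all 12 fits lacking 1 library.

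*cul-5*, which encodes a cullin scaffold of another class of ubiquitin ligases, was the 1 called gene among 25 *skr* and *cul* genes (all genes, 0.854%). It had 2405, 2204 and 2086 in wild-type, 1976, 1885 and 1960.0 in *fbxl-5*, 1089, 1026 and 1392 in *rict-1* and 1747, 1624 and 1766 in the double mutant. *rict-1* libraries were the lowest and double mutant libraries stood below wild-type and *fbxl-5*, with an interaction of 0.76 ± 0.15 (adjusted p = 0.00947). *nhr-5*, the 1 called gene of 166 tested nuclear hormone receptor genes, a share no higher than that of all genes (0.854%), had 153, 156 and 189.9 in wild-type, 133, 124 and 122 in *fbxl-5*, 115, 119.8 and 108 in *rict-1* and 160.2, 187 and 181 in the double mutant and an interaction of 1.00 ± 0.18 (adjusted p = 0.00565). By the sorting *nhr-5* was reversed, not enlarged. *clc-19*, a claudin-like gene, had an interaction of 1.69 ± 0.29, and *Y54G11A.7* of 1.11 ± 0.19, with the double mutant highest in both. *clc-19* overlaps *clc-20* and *Y54G11A.7* overlaps the catalase gene *ctl-2*, each on the other strand. The calls held in 1 of 12 fits lacking 1 library for *cul-5* (highest adjusted p = 0.0311, without *fbxl-5* replicate 2), 2 for *nhr-5* (0.0227, without *rict-1* replicate 3), 5 for *clc-19* (0.0148, without *fbxl-5* replicate 1) and 3 for *Y54G11A.7* (0.0196, without *rict-1* replicate 3).

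In the 110 additive genes the effects of *fbxl-5* loss in the 2 backgrounds differed by less than 2-fold by their 95% intervals, with interactions between -0.68 and 0.66 and a median of -0.20. With a limit of 1.5-fold 19 genes were additive, and without 1 library at a time the number ranged from 43 (without wild-type replicate 2) to 90 (without *rict-1* replicate 2). The effect passed the test in wild-type for 80 of them and in *rict-1* for 41. *dod-3*, a gene first described as acting downstream of the FOXO factor DAF-16, had 63.2, 66.8 and 67.2 in wild-type, 29.7, 27.0 and 29.7 in *fbxl-5*, 401, 286 and 359 in *rict-1* and 172, 127 and 138 in the double mutant. It rose with *rict-1* loss by 2.38 (adjusted p = 3.6e-08) and fell with *fbxl-5* loss by 1.16 in wild-type (adjusted p = 0.000469) and by 1.25 in *rict-1* (adjusted p = 0.000229), an interaction of -0.09 ± 0.23 (95% interval -0.57 to 0.39). The 4 genotypes did not overlap.

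*clec-41* had 2654, 3019 and 2459 in wild-type, 1201, 1291 and 1325 in *fbxl-5*, 7356, 7271 and 6764 in *rict-1* and 3037, 2691 and 2749 in the double mutant, with falls of 1.09 and 1.34 and an interaction of -0.25 ± 0.26 (-0.80 to 0.30). *oac-6*, an acyltransferase family gene, had 118, 146 and 132 in wild-type, 44.2, 43.4 and 62.9 in *fbxl-5*, 455, 528 and 491 in *rict-1* and 273, 191 and 263 in the double mutant, with an interaction of 0.37 ± 0.27 (-0.21 to 0.94). *W01B11.6* had falls of 1.5 and 0.96 and an interaction of 0.54 ± 0.20 (0.11 to 0.97). In each of these 4 genes *fbxl-5* libraries were below wild-type and double mutant libraries below *rict-1*. Of the rising genes, *clc-7* (claudin-like) had 35.1, 42.2 and 30.9 in wild-type, 73.9, 79.0 and 76.6 in *fbxl-5*, 38.5, 58.4 and 48.2 in *rict-1* and 95.8, 119 and 105 in the double mutant, with differences of 1.08 and 1.14 and an interaction of 0.06 ± 0.32 (-0.62 to 0.74). *K06A9.1* had 0.86 and 0.49, with an interaction of -0.37 ± 0.19 (-0.77 to 0.04). The pseudogenes WBGene00021055 and WBGene00020164 rose by 0.87 and 0.73 in wild-type, and their differences in *rict-1* were 0.46 (adjusted p = 0.279) and 0.25 (adjusted p = 0.544). The interaction intervals were -0.97 to 0.15 and -0.90 to -0.06, so for the second, as for *W01B11.6*, equal effects lay outside the interval.

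A large effect did not always allow sorting. The *pud-3* transcript had 181, 396 and 204 in wild-type, 4.82, 5.78 and 8.0 in *fbxl-5*, 219, 664 and 483 in *rict-1* and 4.13, 25.8 and 19.4 in the double mutant. Both strains that carry *rhd43* were far below both that do not, with falls of 5.12 (adjusted p = 0.000184) and 4.88 (adjusted p = 0.000224), yet the interaction of 0.24 ± 0.85 had an interval of -1.56 to 2.05 and the gene stayed undecided. *pud-4* had differences of -4.10 and -4.27. Both were chosen after their values were seen.

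By the same threshold 106 of the 266 genes that fell in *fbxl-5* against wild-type also fell in *rict-1*. Over all genes, 5.78% fell and 10.7% rose in *rict-1*. Their median differences were -2.12 and -1.81, the sums had a median of -3.97, and the double mutant had a median of -1.15. The interaction was above 0 for all 106 (51.4% over all genes) and called for 54 (0.631% over all genes). Of these 54, 39 were reversed and 15 buffered, while 11 of the 106 were additive and 41 undecided. Of the 79 genes that rose in *fbxl-5*, 36 also rose in *rict-1*, with a median sum of 2.66 and a median of 1.42 in the double mutant. Of these 36, 9 had a called interaction, each negative, against 0.223% of all genes. A further 37 of the 266 fell in *fbxl-5* and rose in *rict-1*. Their sums had a median of -0.06 and the double mutant of 0.24, and 19 were additive and 16 undecided. By the same test 0 of the 79 rose in *fbxl-5* and fell in *rict-1*. Both single-mutant differences and the interaction rest on the same libraries, so that choosing genes low in both single mutants itself favours a positive interaction, and choosing genes high in both a negative one. These counts are a description.

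For the vitellogenin genes, 0 of 6 interactions were called by limma at 1%, and *vit-3* and *vit-4* lay nearest. *vit-3* had 72375, 84502 and 87278 in wild-type, 52021, 59508 and 65400.4 in *fbxl-5*, 1019.5, 1495 and 1003 in *rict-1* and 2427, 3322 and 2049 in the double mutant. *rict-1* libraries were lowest, the double mutant libraries were all above them, and both were far below wild-type. The gene fell with *rict-1* loss by 6.14 (adjusted p = 2.5e-09). The effect of *fbxl-5* loss was -0.47 in wild-type (adjusted p = 0.332) and 1.14 in *rict-1* (adjusted p = 0.0322), an interaction of 1.61 ± 0.39 (95% interval 0.78 to 2.44, adjusted p = 0.0326). *vit-4* had 55689, 64314 and 62507 in wild-type, 45452, 52516 and 56094 in *fbxl-5*, 4831, 6459 and 4728 in *rict-1* and 11853, 14279.9 and 10096 in the double mutant, the same order, and an interaction of 1.43 ± 0.38 (95% interval 0.62 to 2.23, adjusted p = 0.0488).

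The same interactions of *vit-3* and *vit-4* were called when the 12 libraries were fitted alone (adjusted p = 0.000508 and 0.000221) and by DESeq2 (0.00133 and 0.00386). Over all alternatives the values stayed between 1.42 and 1.80 for *vit-3*, with adjusted p between 0.000508 and 0.0890, and between 1.3 and 1.57 for *vit-4*, with adjusted p between 0.000221 and 0.118.

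*vit-1* had 103858, 110534 and 103885 in wild-type, 92085, 102883 and 119160 in *fbxl-5*, 7622, 9992 and 7915 in *rict-1* and 11783, 12963 and 9919 in the double mutant. It was low in both *rict-1* genotypes, with an interaction of 0.47 ± 0.32 (95% interval -0.21 to 1.15). *vit-5* had 254424, 293975 and 282053 in wild-type, 289980, 309462 and 332887 in *fbxl-5*, 184041, 219451 and 197676 in *rict-1* and 281476, 275742 and 257167 in the double mutant and an interaction of 0.27 ± 0.28 (adjusted p = 0.686). *vit-2* and *vit-6* had interactions of -0.27 ± 0.20 and -0.26 ± 0.24. The *vit* genes are similar in sequence, and reads shared among them could be assigned unevenly by the counting. *vit-2* overlaps *C42D8.9* on the other strand.

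**Figure D5:**
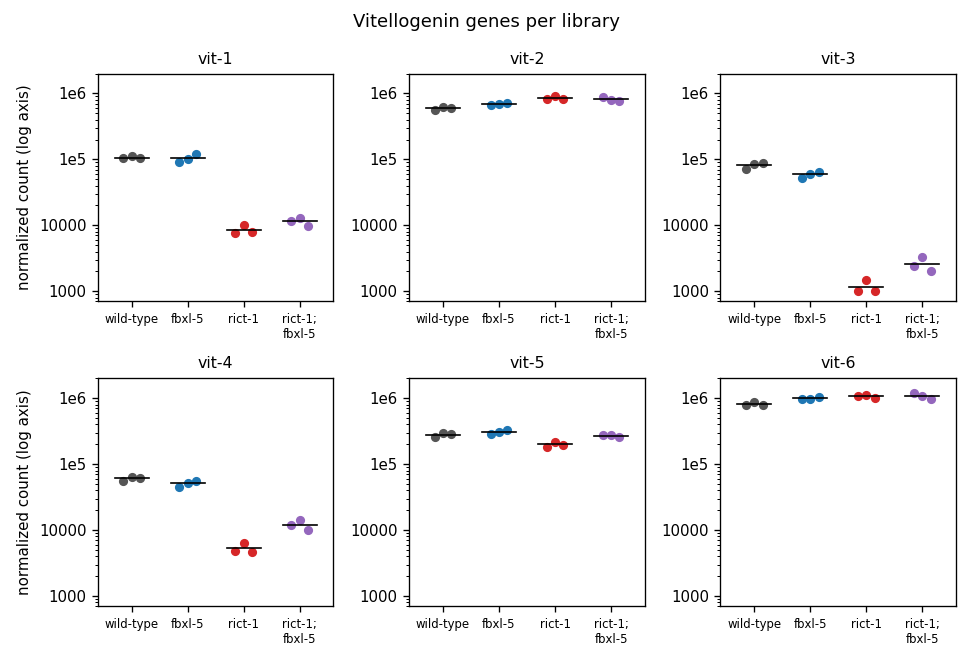
Normalised counts (log axis) of *vit-1* to *vit-6* in the 12 libraries. Points are libraries and lines are means by genotype; *vit-1*, *vit-3* and *vit-4* were low in both genotypes that carry *rict-1(mg360)*, and every double mutant library of *vit-3* and *vit-4* was above all *rict-1* libraries.

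The summed level of ribosomal protein genes was higher in *fbxl-5* than in the other 3 genotypes, though 0 single interactions were called by limma. The sum of the 77 tested *rpl* and *rps* genes, which encode proteins of the cytoplasmic ribosome, was 1731790, 1748950 and 1678070 normalised counts in wild-type, 2442380, 2383590 and 2429270 in *fbxl-5*, 1683960, 1718570 and 1671730 in *rict-1*, and 1692860, 1853800 and 1602190 in the double mutant. The *fbxl-5* libraries were above the other 9, which overlapped. The median difference was 0.49 in wild-type, where 12 of the 77 rose, against 0.586% of all genes. In *rict-1* it was 0.02 and 0 of the 77 passed, against 1.39% of all genes, so the 0 does not set them apart. The interaction was below 0 for all 77, compared with 48.6% of all genes, with a median of -0.46, and 7 of the 77 were additive. Such genes are expressed together, so 77 signs are not 77 separate observations. For 69 tested mitochondrial ribosomal protein genes the median interaction was -0.16, and 65 were below 0.

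Pathway members themselves gave no call. Over all genes the share was 0.854%, so 0 calls in lists of this size do not set these genes apart. Of 25 mTOR and insulin signalling genes, which include *sgk-1*, *akt-1*, *akt-2*, *daf-2*, *daf-16*, *let-363* (mTOR) and *daf-15* (Raptor), 0 had a called interaction by limma, and the median was 0.18. The nearest was *pha-4*, a FOXA transcription factor gene of the pharynx and gut, with 0.34 in wild-type, -0.71 in *rict-1* and an adjusted p of 0.011. Likewise 0 of 18 yolk regulators and uptake genes and 0 of 203 tested *fbxa*, *fbxb* and *fbxc* F-box genes were called. The *dod* (9 tested), *irg* (8), *lys* (8), *cyp* (58), *gst* (31), *acs* and *acdh* (32), *hsp* (18), *his* (23) and inositol, glycerol and trehalose (8) lists also had 0 calls.

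Other tissue markers moved between genotypes without a called interaction in any list. The 5 measured intestine markers summed to 13789 to 15957 normalised counts in wild-type, 17686 to 19010 in *fbxl-5*, 22861 to 24885 in *rict-1* and 23872 to 25274 in the double mutant. The larval molt list summed to 595 to 1519, 1359 to 1692, 2446 to 3590 and 1489 to 2974, with all 8 interactions below 0 and a median of -1.24. Sperm genes summed to 422 to 709, 858 to 1105, 540 to 797 and 1228 to 2549. Germline markers overlapped between wild-type and the double mutant (67189 to 81280 and 67133 to 79459). All 5 intestine markers also had an interaction below 0 (median -0.32), and 36 of the 38 tested sperm genes had one above 0 (median 0.61). The molt and intestine lists move in the same direction as the 30 negative genes, and the sperm list as the 85 positive genes. Their part in those results was not tested.

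The same genes were examined for *fbxl-5* loss in the *lin-29(n333)* background, which uses separate libraries. There *fbxl-5* loss changed 784 genes (5.82%), of which 178 rose (1.32%) and 606 fell (4.5%). Of the 85 positive genes 2 rose and 5 fell, with a median of -0.12, and 50 were below 0. Of the 30 negative genes 1 rose and 11 fell, with a median of -0.42, and 24 were below 0.

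The 115 called genes comprised 112 protein-coding genes, 2 pseudogenes and 1 non-coding gene. Chromosome V held 34 of them (29.6%, against 19.2% of the genes tested) and chromosome IV 25 (21.7%, against 16.3%), with 17 each on II and III, 12 on X and 10 on I. The *fbxl-5* gene is on chromosome V and *rict-1* on II. In 7 cases called genes lay within 10000 bases of each other, among them *fat-7* and *ugt-41* (7922 bases), *tsp-1* and *tsp-2*, *drd-50* and *mul-1*, and *cdr-2* and *cdr-4*, and both genes of each of the 7 pairs had interactions of the same sign.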

How the data were processed

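mRNA-Seq (TruSeq RNA v2 libraries of poly(A) RNA, Illumina) had been performed on 3 biological replicates of each genotype. Per the labels, STAR, featureCounts (Subread) and DESeq2 were used, with versions not given in the sources used here. The deposited table holds read counts per gene that the authors divided by DESeq2 size factors, a normalised signal. All values (100%) were whole multiples of 1 read (tolerance 1e-06), which gave the read counts back. The authors' 7 tables of log2 fold changes and p-values were not used. Of the gene IDs, 92.7% had a symbol in the annotation (WBcel235, Ensembl), which also gave positions.

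limma 3.58.1 (R 4.3.3) was fitted to log2(normalised count + 1) with 1 mean per genotype over all 18 libraries, a mean trend and a robust prior, for the 13472 genes with a mean of at least 10. The Benjamini-Hochberg adjusted p was called at 1%. Alternatives were edgeR 4.0.16 and DESeq2 1.42.0 on the recovered reads, TMM scaling, other pseudocounts and minimum means, a 5% rate, no trend, the 12 libraries alone, replicate blocks and leaving out each library. The pipeline was tested on simulated data. Same-numbered *rict-1* and double mutant libraries deviated together (correlations 0.65, 0.39 and 0.24). An alternative fit therefore paired them by number, from the data and not from the labels. The main fit used no pairing.

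Named by rule were the *vit* genes, *fbxl-5*, *rict-1*, the 6 reversed, buffered and enlarged genes of each sign with the largest interaction among those reaching a mean of 100, 4 additive rises and falls, the genes nearest the threshold and called members of the lists (up to 4 a list). The genes and lists were chosen with earlier results of these data known. Libraries held 19100249 to 29733059 reads on genes. The limma p-values rest on the spread between replicates pooled over all 18 libraries, with 3 libraries per genotype.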

Additional observations from a re-analysis of the deposited data

Results flagged for a closer look

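The effect of *fbxl-5* loss differed between the wild-type and the *rict-1* background, by the limma test of the interaction itself at a false discovery rate of 1%, for 115 genes, 0.854% of those tested. The values that follow are the interaction log2 differences of the genes named by rule. Each is the effect in *rict-1* minus the effect in wild-type, from 3 libraries per genotype.

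Among reversed genes the difference was 6.91 for *B0024.4*, 4.85 for *R11D1.3*, 4.64 for *srlf-30*, 4.46 for *ugt-8*, 3.96 for *lips-15*, 3.94 for *far-8*, 2.20 for *fat-7*, 1.3 for *lbp-7* and 1.0 for *nhr-5*. Reversed genes with the other sign had -2.34 (*Y51H7C.1*), -1.91 (*B0252.1*), -1.87 (*klf-3*), -1.72 (*clec-57*), -1.55 (*clec-80*) and -1.12 (*asah-1*).

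Among buffered genes it was 3.52 for *ugt-25*, 3.50 for *T19H12.3*, 3.21 for *Y69A2AR.22*, 3.08 for *T11B7.5*, 3.08 for *nlp-14* and 2.66 for *ugt-41*, and -2.33 for *clec-169*, -2.06 for *F20C5.10*, -1.72 for *mec-19*, -1.57 for WBGene00003067, -0.84 for *zip-3* and -0.70 for *C48B4.10*. Among enlarged genes it was 1.69 for *clc-19*, 1.5 for *col-135*, 1.11 for *Y54G11A.7* and 0.76 for *cul-5*, and -4.91 for *K10D11.2*, -3.08 for *drd-50*, -2.88 for *Y51H4A.5*, -2.75 for *tbb-6*, -2.53 for *Y41C4A.32*, -1.58 for *cdr-2* and -1.0 for *clec-186*. With 3 libraries per genotype, single libraries were not tested for standing apart.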

How the results depend on the processing

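All 115 called interactions kept their sign, and an unadjusted p under 0.05, in each of 24 refits that gave them a value. Of the 115, 46 kept their call in all 12 fits lacking 1 library, 59 lost it in some of them and 10 in all. Pairing the *rict-1* and double mutant libraries by number (replicate block) gave 122 called interactions, 348 genes for *fbxl-5* against wild-type, 169 for the double mutant against *rict-1* and 2242 for *rict-1* against wild-type. It gave 68 reversed, 38 buffered, 16 enlarged, 99 additive and 275 undecided genes, and ended 19 of the 115 calls. A block over all 18 libraries gave 148, 384, 238 and 2639 calls in the same order.

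Some settings moved counts by over 1.5 times, and the cause was not tested. In the order interaction, *fbxl-5* against wild-type and double mutant against *rict-1*, calls numbered 458, 840 and 482 with DESeq2 on the reads, and 819, 1374 and 688 with the 12 libraries alone, where 114 of the 115 genes were called again. They numbered 495, 1124 and 432 at a false discovery rate of 5%, and 796, 1262 and 767 with edgeR on the 12 libraries, a fit added after the data were seen. For *rict-1* against wild-type they numbered 3579, 3980 and 3441 in the last 3. Sorted into reversed, buffered, enlarged, additive and undecided genes, DESeq2 gave 179, 194, 85, 359 and 487, the 12 libraries 390, 279, 150, 625 and 505, and the 5% rate 188, 215, 92, 458 and 572. Genes were not sorted from edgeR on 12 libraries. Without the mean trend and robust prior there were 10 enlarged and 73 additive genes, and 19 additive genes when the interval had to lie inside 1.5-fold.

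Without 1 library at a time, calls ranged from 55 to 89 for the interaction, 124 to 323 for *fbxl-5* against wild-type, 87 to 179 for the double mutant against *rict-1* and 1400 to 2084 for *rict-1* against wild-type. Genes sorted ranged from 31 to 63 reversed, 11 to 23 buffered, 6 to 13 enlarged, 43 to 90 additive and 177 to 255 undecided. Of 17 named genes without a called interaction, 2 additive ones near 0 changed sign without 1 library. Over such fits *clc-7* ranged from -0.091 (without *rict-1* replicate 1) to 0.203 (without *rict-1* replicate 2), with -0.056 without wild-type replicate 2 and -0.02 without double mutant replicate 2. *dod-3* ranged from -0.225 (without *rict-1* replicate 2) to 0.018 (without *rict-1* replicate 1), with 0.0043 without double mutant replicate 2. edgeR on 18 libraries called 105 interactions (101 of the 115). Depth limits genes of few counts, whose log2 values depend on the added 1. The planned description of promoter motifs was not run, because no promoter sequences were at hand.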
